A study of Homo sapiens with 2 samples.

Results

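The p53 targets and apoptosis regulators examined here are 47 genes listed by symbol, with earlier results of these data known, which cover the p53 pathway, the BCL2 family, the caspases with their inhibitors and the death receptors. All 47 were found in the deposited tables by matching Ensembl identifiers to symbols, out of 60623 entries. RNA was sequenced from HepG2 cells, a line derived from a human hepatocellular carcinoma and recorded as WT in genotype. Both groups were loaded with 1 mM free fatty acids (FFA, oleic and palmitic acid bound to albumin) for 24 h, which fills the cells with lipid. One group received nothing further (FFA library), and the other also received 10 μM 9-cis-retinoic acid for 24 h (9-cis-RA library), a ligand of the RXR and RAR nuclear receptors dissolved in DMSO, with solvent matched between groups. The study describes the retinoid both as given together with FFA and as given after FFA, so the order is not settled here. Each group has 1 library, so no test was possible, and no library without FFA was analysed here.

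The tumor suppressor p53 is a transcription factor that MDM2 and MDM4 hold in check. When it is freed by DNA damage or metabolic stress, it turns on genes for growth arrest, repair and cell death. Death signals then meet at the mitochondrion, where BH3-only proteins free or activate BAX and BAK1, survival proteins such as BCL-xL and MCL1 oppose them, and released cytochrome c builds the APAF1 apoptosome that activates caspase 9. Death receptors at the cell surface use FADD to activate caspases 8 and 10 instead. Lipid overload in liver cells is known to engage both routes.

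The libraries held 60821539 and 57669670 counted fragments, of which the 47 genes took 0.333% and 0.340%. Counts were divided by size factors, and a log2 fold change compares the 9-cis-RA library with the FFA library after adding 1 to each normalized count. The comparison took the 20431 genes whose counts in both libraries summed to at least 10, which included 46 of the 47 members. Each log2 fold change carries an exact 95% counting interval, which covers the error of counting fragments and not the spread between cultures. Liver markers were abundant, with 186609 and 112866 counts for ALB and 273242 and 134862 for AFP, and the 6 liver markers had a median of -0.21 on the log2 scale, although TTR, another liver secretory gene, had only 341 and 278. Of 8 markers of other liver cells, PTPRC and LRAT were at 0 in both libraries, and COL1A1 and COL1A2 had at most 3 counts. CD68 had 5 and 15, STAB2 11 and 3 and PECAM1 52 and 29, and ACTA2 was the most abundant at 1186 and 773. Another gene covers 81.6% of the exonic bases of CD68 on the same strand, where fragments were not counted. Among the liver markers APOA1 was the highest at 0.039 and AFP the lowest at -0.99.

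The members' median was -0.014 on the log2 scale, between quartiles of -0.21 and 0.12, beside -0.020 for all genes compared, whose quartiles were -0.26 and 0.18. This median turned to 0.0047 with TMM and to 0.035 with total-count scaling. In direction, 22 members were higher and 24 were lower, and 32 of 46, or 69.6%, lay within 0.25 of 0, against 55.1% of all genes compared. No member was past 1 in either direction, where 3.37% of all genes were above 1 and 4.90% below -1. Past 0.5, no member was higher and 3 were lower, namely BIK, FDXR and TNFSF10, where 9.03% of all genes were above 0.5 and 14.3% below -0.5. Because the counts of every compared member summed to at least 200, the 13079 genes with that many counts are the closer background. Of them 0.390% were above 1, 1.32% below -1, 2.79% above 0.5 and 6.48% below -0.5, so the members' share of 6.52% below -0.5 stood at the background. The quartiles of these genes were -0.17 and 0.14, and 69.6% of them lay within 0.25 of 0.

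The depth allowed much smaller differences to be resolved from counting error. The interval lay above 0 for 13 members, or 28.3%, and below 0 for 19 members, or 41.3%. These counts were 18 above and 17 below with total-count scaling, and 10 above and 21 below with the length trend removed. The background was 22.5% above and 25.7% below among all genes compared, and 31.1% and 33.2% among genes with at least 200 counts. An interval narrows with depth, and neither background was matched for depth to the members or to the lists described below. The plot of members by subgroup shows that survival genes of the BCL2 family lay mostly to the right of 0, and BAX, BOK, BIK, FDXR and TNFSF10 to the left.

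**Figure D1:**
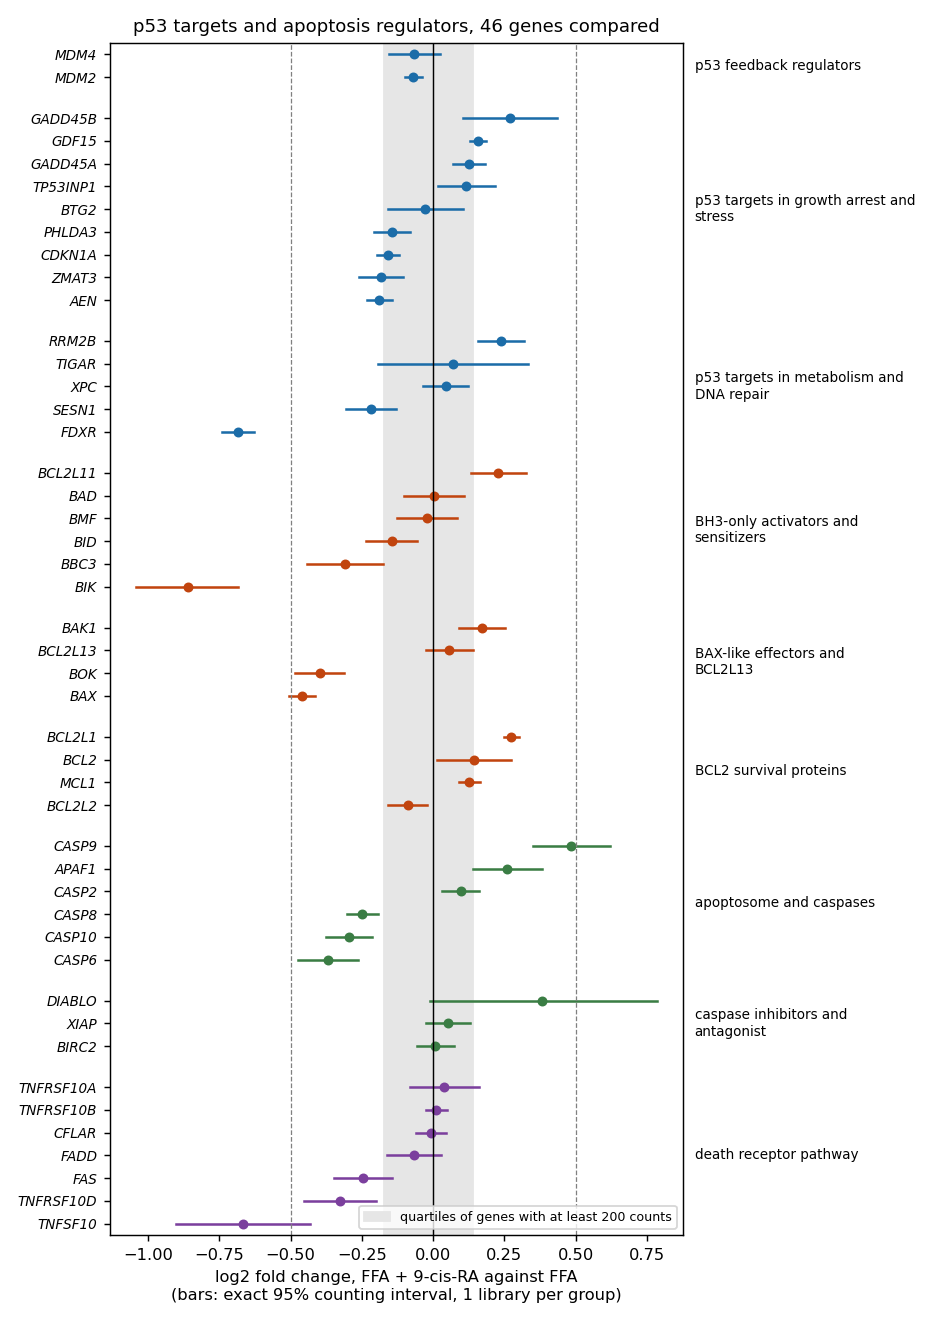
Each point is the log2 fold change of 1 gene, 9-cis-RA library against FFA library, with its exact 95% counting interval as a bar, for the 46 members compared, in 9 subgroups colored by class. The shaded band runs between the quartiles of genes with at least 200 counts, and dashed lines mark 0.5 and -0.5. BIK at -0.86 and CASP9 at 0.48 are the lowest and highest points.

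MDM2 and MDM4, the feedback inhibitors of p53, were nearly level. MDM2, the ubiquitin ligase that targets p53 for degradation and is itself a p53 target, had 18221 counts with FFA and 17034 with 9-cis-RA. The difference was -0.070 on the log2 scale (95% counting interval -0.10 to -0.039), and it was -0.020 with total-count scaling, where the interval includes 0, and -0.15 with the length trend removed. MDM4, which blocks the transactivation domain of p53, had 2080 and 1950 counts, or -0.065 on the log2 scale, and its interval of -0.16 to 0.024 includes 0 but lies below 0 with either trend removed. The ratio of MDM4 to MDM2 within a library, both per kb of exonic sequence without same-strand overlap, was 0.135 in each.

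Among the 9 genes of growth arrest and stress, 4 had an interval above 0, 4 had one below 0 and BTG2 had one that includes 0. CDKN1A encodes p21, the inhibitor of cyclin-dependent kinases through which p53 stops the cell cycle. It had 11314 and 9954 counts, a difference of -0.16 on the log2 scale (95% counting interval -0.20 to -0.12). AEN, an apoptosis-enhancing nuclease, was the lowest of the subgroup at -0.19 (9623 and 8285 counts, interval -0.23 to -0.15), followed by ZMAT3 at -0.18 and PHLDA3, an inhibitor of AKT signaling, at -0.14. GDF15, a secreted stress cytokine, went the other way, with 21403 and 23412 counts and a log2 fold change of 0.16 (95% counting interval 0.13 to 0.18). The highest of the subgroup was GADD45B, a stress sensor that activates MAP kinase signaling, with 558 and 660 counts and 0.27 on the log2 scale (interval 0.11 to 0.44). GADD45A was at 0.13 and TP53INP1 at 0.12. These 9 genes had a median of -0.027, which turned to 0.022 with total-count scaling and to 0.045 without genes that another gene overlaps.

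The 5 targets in metabolism and DNA repair were spread wider because of FDXR. This gene encodes ferredoxin reductase, which passes electrons to mitochondrial P450 enzymes and to iron-sulfur cluster assembly. FDXR (GRCh38 chromosome 17, 74862497 to 74873031) had 6699 counts with FFA and 4088 with 9-cis-RA. At -0.68 (95% counting interval -0.74 to -0.63) it was the lowest of the known p53 targets compared. Per kb of exonic sequence it went from 1844 to 1147 normalized counts, and from rank 8 to rank 12 among the 46 members. SESN1, a sestrin that restrains mTORC1, was at -0.22 with 2252 and 1900 counts. RRM2B, the p53-inducible subunit of ribonucleotide reductase, was the highest at 0.24 (2303 and 2663 counts, interval 0.16 to 0.32). XPC, the damage sensor of nucleotide excision repair, was at 0.044, and TIGAR, which lowers fructose-2,6-bisphosphate, at 0.069, both with intervals that include 0. TIGAR had 239 and 246 counts, and other genes share 18.1% of its exons, where fragments were not counted.

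Across these subgroups and the death genes, 19 members were counted as well-known p53 targets. They were MDM2, BAX, BBC3, PMAIP1, FAS, TNFRSF10B, every growth arrest and stress gene except GADD45B, and all targets in metabolism and DNA repair. PMAIP1 was not compared, which left 18. The median of these 18 was -0.11, with 4 intervals above 0 and 10 below. The 28 members not counted so had a median of 0.0052, with 9 intervals above 0 and 9 below, and this median was -0.047 with the expression trend removed. The median of the known targets was -0.057 with total-count scaling, and -0.027 without genes that another gene overlaps. Among genes with at least 200 counts, 31.1% had an interval above 0 and 33.2% had one below. These shares were not matched to the known targets for depth, which narrows an interval. Neither the difference between the medians of the known targets and the other members nor the counts of intervals were tested.

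The p53 response element is built from a pair of decamers, and the promoter windows of the members were searched for the p53 decamer, a motif that reads the same on both strands. The windows run from 250 bases before to 50 bases after each RefSeq start site on GRCh38.p14, and 36 members had one. A perfect decamer was found in 8 of them, or 22.2%, against 8.06% of the 27305 genes in the promoter table. It was found in 4 of 14 known p53 targets, or 28.6%, and in 4 of 22 other members, or 18.2%. A gene counted if any of its windows held a decamer, so genes with several start sites had more chances. The shares were not matched for this. The match is a description and does not show binding. The 8 windows are shown because they hold FDXR, the lowest p53 target, beside AEN, SESN1, FAS and others that differ in direction. Capitals mark the decamer, and each line reads 5′ to 3′ on the strand of the gene.
FDXR, chr17:74872986-74873015, minus strand: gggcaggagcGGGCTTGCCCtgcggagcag
AEN, chr15:88621296-88621325, plus strand: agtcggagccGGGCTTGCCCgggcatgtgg
SESN1, chr6:109009018-109009047, minus strand: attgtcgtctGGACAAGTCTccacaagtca
FAS, chr10:88991299-88991328, plus strand: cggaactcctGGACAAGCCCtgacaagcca
BAK1, chr6:33580330-33580359, minus strand: aaagtgggcgGGACATGCTCctgggcctgg
CASP8, chr2:201257904-201257933, plus strand: ctttccaataAAGCATGTCCagcgctcggg
CASP9, chr1:15524959-15524988, minus strand: cggtggcacgAGGCTAGCCCttgggggcgg
BCL2L13, chr22:17706800-17706829, plus strand: ggaaagggcaGAGCAAGTCCactgtggtaa
FDXR and AEN share the same decamer letters. It starts 11 bases before the start site in FDXR and 34 bases before it in AEN. Their log2 fold changes were -0.68 and -0.19. The 8 genes ran from -0.68 for FDXR to 0.48 for CASP9, with a median of -0.20. The 27 compared members whose window held no perfect decamer had a median of -0.0069.

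The BCL2 family had 14 of 15 members compared and is taken by role. Among the 4 survival genes, BCL2L1, MCL1 and BCL2 had intervals above 0, and BCL2L2 had one below 0, which includes 0 with total-count scaling, as that of BCL2 does with either trend removed. BCL2L1 encodes BCL-xL, and the gene (chromosome 20, 31664452 to 31723989) had 21604 counts with FFA and 25637 with 9-cis-RA. This is a log2 fold change of 0.27 (95% counting interval 0.25 to 0.30), the highest of the 14. MCL1, a short-lived survival protein, had 11890 and 12744 counts, or 0.13 on the log2 scale (interval 0.092 to 0.16). BCL2 was close to it at 0.14 (928 and 1006 counts, interval 0.014 to 0.27). BCL2L2, which encodes BCL-w, had 3538 and 3262 counts and -0.090 (interval -0.16 to -0.021), and the read-through gene BCL2L2-PABPN1 covers 19.4% of its exonic bases. The median of the 4 survival genes was 0.14 and stayed between 0.087 and 0.21 under every alternative tried.

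The effectors that open the outer mitochondrial membrane did not move together. BAX, a classic p53 target (chromosome 19, 48954815 to 48961798), was lower, with 9740 and 6949 counts and a log2 fold change of -0.46 (95% counting interval -0.50 to -0.41). BOK, a related effector, was lower as well at -0.40 (2598 and 1934 counts, interval -0.48 to -0.31). BAK1, the other main effector, was higher at 0.17 (2390 and 2643 counts, interval 0.092 to 0.25). BCL2L13, a BCL2-like protein that also serves as a mitophagy receptor, was at 0.056 with an interval that includes 0. In normalized counts per kb, BAX made up 61.5% of these 4 genes with FFA and 54.6% with 9-cis-RA, and BAK1 17.6% and 24.3%.

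The BH3-only genes held the lowest member of all. BIK, whose protein acts from the endoplasmic reticulum, had 732 counts with FFA and 395 with 9-cis-RA, and lies on chromosome 22 at 43110750 to 43129712. The difference was -0.86 on the log2 scale, and the whole interval of -1.04 to -0.68 lay below -0.5. BBC3, which encodes PUMA, the main BH3-only protein induced by p53, had 1047 and 829 counts, or -0.31 (interval -0.44 to -0.18). BID, the protein that caspase 8 cleaves to link death receptors to the mitochondrion, was at -0.15 with 2234 and 1981 counts and an interval below 0. BCL2L11 encodes BIM, a target of FOXO factors, and was the only BH3-only gene with an interval above 0, at 0.23 (1621 and 1863 counts, interval 0.13 to 0.33). BAD at 0.0027 and BMF at -0.021 had intervals that include 0. PMAIP1, which encodes NOXA and is a known p53 target, was listed at 0 counts with FFA and with 9-cis-RA. The floor of 3 counts corresponds to 0.0493 and 0.0520 CPM, and no other gene overlaps its exons on the same strand. PMAIP1 was thus not detected in either group. Only fragments with a single alignment were counted, and why PMAIP1 had none was not tested.

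**Figure D2:**
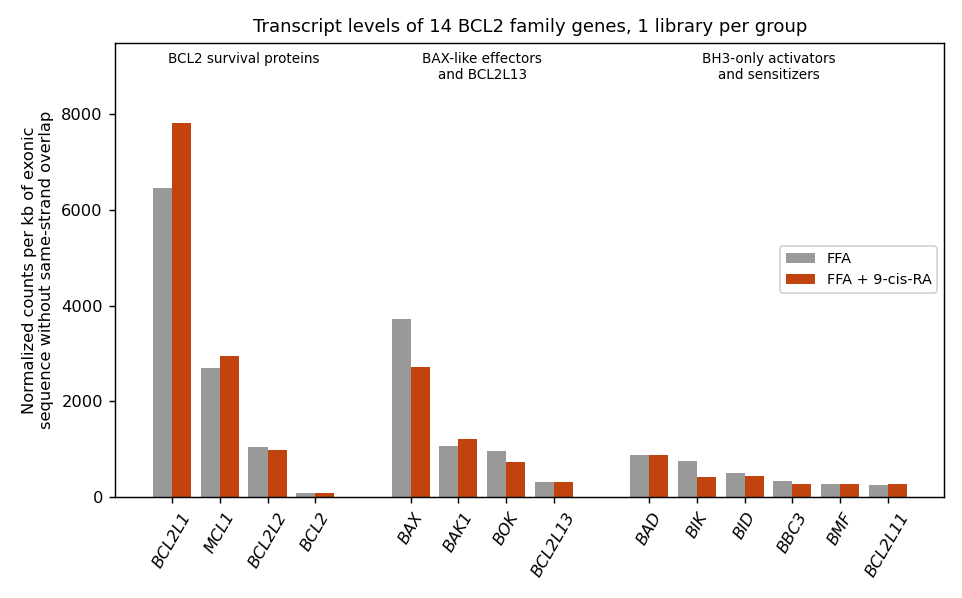
Bars give normalized counts per kb of exonic sequence that no other gene overlaps on the same strand, in the FFA library (gray) and the 9-cis-RA library (red-brown), for the 14 BCL2 family genes compared. BCL2L1 stands highest in both libraries at 6457 and 7810, BAX goes from 3729 to 2712, and BIK from 762 to 419.

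Levels per kb rank the members by transcript level within each library. BCL2L1 stood at 6457 and 7810 normalized counts per kb, ahead of MCL1 at 2696 and 2945, while BCL2 was at only 78.1 and 86.3. Within the survival genes BCL2L1 thus made up 62.9% and 66.1% of the summed level per kb, and BCL2 0.761% and 0.731%. Over all members the highest was GDF15 at 10158 and 11326 normalized counts per kb, and the lowest was DIABLO at 19.9 and 26.0. Other genes cover 31.4% of the exonic bases of DIABLO, so its level rests on the remaining bases alone. BAX took rank 3 in the FFA library and rank 6 in the 9-cis-RA library. Exonic length counts all annotated exons of a gene, less the bases that another gene overlaps on the same strand. Genes with many alternative exons are therefore placed too low on this scale.

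Ratios of a pair of transcripts within a library do not depend on the scaling between libraries. The ratio of BAX to BCL2L1, each per kb, was 0.578 with FFA and 0.347 with 9-cis-RA. This is a log2 change of -0.73, with a counting interval of -0.79 to -0.68. BAX against MCL1 went from 1.38 to 0.921, and BIK against BCL2L1 from 0.118 to 0.0537. The ratio of BAK1 to BAX went from 0.287 to 0.445. These pairs were chosen after the values of the members were seen.

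**Figure D3:**
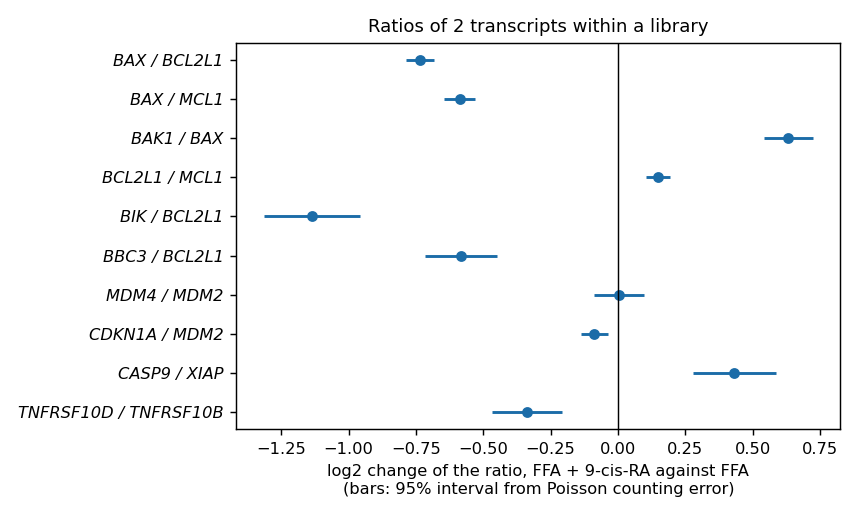
Points give the log2 change of the ratio of a pair of transcripts, 9-cis-RA library against FFA library, for 10 pairs of members, with 95% intervals from Poisson counting error as bars. BIK against BCL2L1 lies lowest at -1.14 and BAK1 against BAX highest at 0.63, while MDM4 against MDM2 lies at 0.0041 with an interval that includes 0.

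The apoptosome and the caspases had intervals on both sides of 0, with 3 genes above, 3 below and none that includes 0, although that of CASP2 does with either trend removed. CASP9, the initiator caspase of the mitochondrial route, was the highest member of all (chromosome 1, 15490832 to 15526534), with 783 and 1075 counts and a log2 fold change of 0.48 (95% counting interval 0.35 to 0.62). With TMM and with total-count scaling it was above 0.5. APAF1, the scaffold that recruits caspase 9, was higher too at 0.26 (1020 and 1199 counts, interval 0.14 to 0.38), and CASP2 was at 0.097. CASP6, an executioner caspase, was the lowest at -0.37 (1720 and 1307 counts, interval -0.47 to -0.26). CASP8 and CASP10, the initiators at death receptors, were lower at -0.25 (6135 and 5069 counts) and -0.29 (2821 and 2257 counts). They are neighbors on chromosome 2, where CASP10 spans 201182881 to 201229406 and CASP8 spans 201233443 to 201287711. CFLAR, their catalytically inactive relative that blocks caspase 8, ends before them at 201176687 and was level at -0.0069 (5879 and 5740 counts, interval -0.060 to 0.046).

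The caspase inhibitors were close to 0. XIAP, which binds active caspases directly, was at 0.053 with 2757 and 2806 counts (interval -0.023 to 0.13), and BIRC2, the ubiquitin ligase cIAP1, was at 0.0077 with 3795 and 3743 counts (interval -0.058 to 0.073). With total-count scaling XIAP was at 0.10 with an interval of 0.026 to 0.18, which excludes 0. DIABLO encodes SMAC, which is released from mitochondria and displaces these inhibitors, and had 96 and 123 counts. It was at 0.38 on the log2 scale with an interval of -0.012 to 0.79, which lies above 0 with TMM and total-count scaling and with the expression trend removed, and other genes cover 31.4% of its exons, so fragments there were not counted.

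Of the 7 members of the death receptor pathway, 3 had an interval below 0 and none had one above 0, except for TNFRSF10B with total-count scaling. Among genes with at least 200 counts, 33.2% had an interval below 0 and 31.1% had one above. FAS, a death receptor and p53 target, had 1733 and 1435 counts, or -0.24 on the log2 scale (95% counting interval -0.35 to -0.14), with 21.9% of its exonic bases overlapped. The lowest was TNFSF10, which encodes the death ligand TRAIL, with 395 counts with FFA and 244 with 9-cis-RA (chromosome 3, 172505508 to 172523475). This is -0.67 on the log2 scale (95% counting interval -0.90 to -0.43). In RNA of a whole culture, fewer cells that express a gene and less RNA per cell cannot be told apart. The receptors of TRAIL come next. TNFRSF10B, or DR5, the receptor that p53 induces, had 12011 and 11869 counts and was at 0.010 on the log2 scale (interval -0.026 to 0.047), or 0.060 (interval 0.023 to 0.096) with total-count scaling. TNFRSF10A, or DR4, the highest of the pathway, had 1102 and 1111 counts and was at 0.039 (interval -0.082 to 0.16). TNFRSF10D, a decoy receptor with a truncated death domain, was lower at -0.33 (1156 and 904 counts, interval -0.45 to -0.20). FADD, the adaptor of these receptors, was at -0.067 with an interval that includes 0.

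Set side by side, the subgroup medians ran from -0.17 for the effectors with BCL2L13 to 0.14 for the survival genes. Between them lay the BH3-only genes at -0.083, the apoptosome and caspases at -0.075, the feedback regulators and the death receptor pathway both at -0.067, growth arrest and stress at -0.027, metabolism and repair at 0.044, and the caspase inhibitors with DIABLO at 0.053. These subgroups hold between 2 and 9 genes, and no difference among them was tested. With the expression trend removed the metabolism and repair median was -0.021 and that of the caspase inhibitors with DIABLO -0.010, while the medians of the survival genes, effectors, BH3-only genes, caspases, feedback regulators and death receptor pathway kept their direction under every alternative tried. The scatter of log2 fold change against mean count shows the members among genes with like counts.

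**Figure D4:**
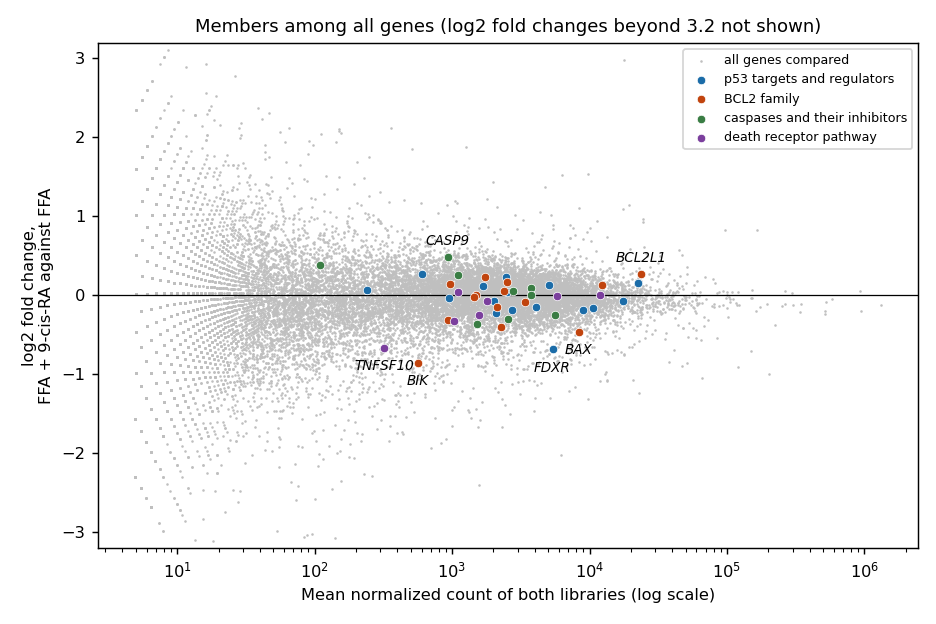
Points give the log2 fold change (vertical axis) against the mean normalized count of both libraries (horizontal axis, log scale) for the 20431 genes compared (gray) and the members (colored by class). Genes beyond the ends of the vertical axis are not drawn, and the members run from BIK at -0.86 to CASP9 at 0.48.

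The study centers on miR-34a, a microRNA that p53 induces, so 8-base seed sites for it were looked up in the members. The mature sequence from RefSeq is shown with its seed, bases 2 to 8, in capitals, and the sites of MDM4, all on the plus strand of GRCh38, follow because this gene holds 5 of them.
hsa-miR-34a-5p: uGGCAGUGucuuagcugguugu
MDM4, chr1:204549236-204549265: acgtctgatatCACTGCCAtacctgaaaag
MDM4, chr1:204553231-204553260: ttttttttactCACTGCCActaaactaaag
MDM4, chr1:204553924-204553953: gccagcctccaCACTGCCActaacttctgt
MDM4, chr1:204553958-204553987: taagattgagtCACTGCCAagcatttgaaa
MDM4, chr1:204554545-204554574: ctggaattttgCACTGCCAtagggaatgtt
Capitals mark the 8 bases CACTGCCA, searched on the transcript strand of the annotated 3′ untranslated regions of protein-coding transcripts in GENCODE v29 on GRCh38. Shorter matches to the seed were not searched, so a member without these 8 bases may still hold one. A site of these 8 bases was present in 6 of the 47 members, or 12.8%, against 5.52% of 19536 genes. The regions of all protein-coding transcripts of a gene were pooled, so a site can lie in coding sequence of another transcript. Longer or more regions give a gene more chances of a match, and the shares were not matched for this. The first MDM4 site, at 204549236, lies apart from the rest, which begin at 204553231. Which sites the transcripts of these cells carry in their 3′ untranslated regions was not tested. The 6 members with a site were MDM4, BCL2L13, BMF, CASP2, CFLAR and TP53INP1. Their log2 fold changes lay between -0.065 and 0.12, with a median of 0.025, beside a median of -0.047 for the 40 compared members without one. MIR34AHG, the host transcript from which miR-34a is processed, was named after its values were seen. Its counts were 1556 with FFA and 1111 with 9-cis-RA, or -0.46 on the log2 scale (95% counting interval -0.57 to -0.35). Counts of the host transcript do not measure the mature microRNA.

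The other genes of both pathways were also mixed in direction. For comparison, the interval lay above 0 for 22.5% of all genes compared and below 0 for 25.7%. Among genes with at least 200 counts these shares were 31.1% and 33.2%. Of 20 further p53 pathway genes, 19 were compared, with 4 intervals above 0, 9 below 0, none past 0.5 in either direction and a median of -0.096. The highest was SESN2, a sestrin that ATF4 also induces, at 0.31 (3652 and 4449 counts). Of 18 further apoptosis genes, 15 were compared, with 4 intervals above 0, 7 below 0 and a median of -0.022, which was 0.027 with total-count scaling. The genes past 0.5 were BIRC3, the inhibitor cIAP2, at -0.59 (563 and 366 counts) and BCL2A1, a survival protein, at -1.30 (64 and 25 counts). TNFRSF1A, the main TNF receptor, was the highest at 0.38. The 14 cell cycle genes known to be repressed through p21 had 6 intervals above 0 and 6 below 0, and their median of -0.029 turned to 0.020 with total-count scaling. The range ran from -0.18 for CCNB1 to 0.38 for CCNE2. SESN2 also stands among the integrated stress response genes, and BIRC5 both among the apoptosis and the cell cycle genes.

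**Figure D5:**
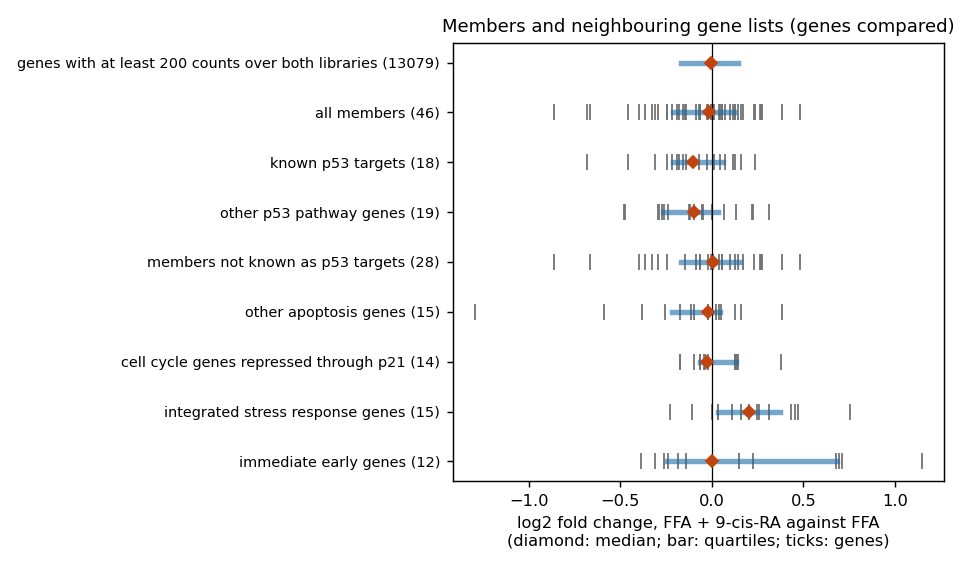
Ticks give the log2 fold change of single genes, diamonds the median and bars the quartiles, for the members, the lists beside them and, without ticks, the genes with at least 200 counts. The medians of the known p53 targets at -0.11 and of the other p53 pathway genes at -0.096 lie left of 0, and that of the integrated stress response genes at 0.20 lies right of it.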

How the data were processed

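Poly(A) RNA of 2 HepG2 cultures was sequenced from stranded libraries, 1 per group, in 1 batch per the labels. Per the file headers, the deposited values are raw counts of fragments per gene, made by the authors with featureCounts version 2.0.1, with both ends mapped, a fragment length check and reverse strand (setting 2), leaving out fragments with more than a single alignment or gene. The build is GRCh38, and the aligner and annotation release are not given in the sources used here. Symbols matched 60295 entries. Size factors came from DESeq2 version 1.42.0 and TMM factors from edgeR version 4.0.16, in R version 4.3.3. Fold changes, exact Clopper-Pearson 95% intervals, overlaps and sequence searches used Python 3.11.15 with scipy 1.17.1 and statsmodels 0.14.6 and were tested on simulated data. Floors are 3 counts, and intervals and floors cover counting error only. DESeq2 testing as named by the study needs replicates, so no model was fitted and p-values are absent.

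The members and lists were chosen with earlier results of these data known. Of the members, those past 0.5, the highest and lowest of each subgroup, and MDM2, CDKN1A, BAX, MCL1, FAS and TNFRSF10B are given in full. From the other pathway lists, genes past 0.5 or at an end of the range are named, except for a gene that is not reported here, and the marker lists are given as counts. Values were recomputed with total-count or TMM scaling, a pseudocount of 0.1 or 5, no minimum and a minimum of 50 counts, protein-coding genes alone, and loess trends (span 0.3) on gene length or mean expression removed. Leaving out genes with same-strand overlap and the background of at least 200 counts were added after seeing the data.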

Additional observations from a re-analysis of the deposited data

How the results depend on the processing

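No paired analysis was possible because each group has 1 library. All 13 members with an interval above 0 and all 19 with one below 0 kept their direction under each alternative in which they were compared. Members above 0.5 numbered 1 with TMM and 1 with total-count scaling, which was CASP9, against 0 otherwise, and members below -0.5 were 3 under each alternative. An interval crossed 0 or left it for 7 members with total-count scaling (BCL2L13, BCL2L2, DIABLO, MDM2, TNFRSF10B, XIAP and XPC), for BCL2, CASP2, CFLAR, MDM4 and TP53INP1 with the length trend removed, for BCL2, CASP2, DIABLO, FADD, MDM4 and TP53INP1 with the expression trend removed, and for DIABLO with TMM. With total-count scaling, which moved the median of all genes by 0.049, the known p53 targets had a median of -0.057, the p21-repressed cell cycle genes 0.020, all members 0.035 and the p53 targets with their regulators 0.0028. With the length trend removed, the feedback regulators had a median of -0.15 and the apoptosome and caspases -0.14, and without overlapped genes, an alternative chosen after seeing the data, the known p53 targets had -0.027. Of the single members, 8 moved past their counting interval with total-count scaling and 7 with the length trend removed, and none of these values changed the direction of a member whose interval excludes 0. With 1 library per group, differences between cultures cannot be told apart from the treatment.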

Other observations

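Genes of neighboring stress pathways were described beside the members. Of 15 integrated stress response genes, which include the transcription factor ATF4 and genes it controls, 12 had an interval above 0 and 1 had one below. The median log2 fold change was 0.20. The smallest of the 12 were TRIB3 at 0.031 and PSAT1 at 0.036. ATF4 itself was level at -0.0017 (40678 and 39858 counts), with an interval that includes 0. Of all genes compared, 22.5% had an interval above 0 and 25.7% one below. Of genes with at least 200 counts, 31.1% and 33.2% did. CHAC1, a glutathione-degrading enzyme, was the highest at 0.76 (34 and 57 counts, 95% counting interval 0.14 to 1.43), and DDIT3, which encodes CHOP, was the lowest at -0.23 (3300 and 2767 counts). Among the members, GDF15, TNFRSF10B and BBC3 are also known to respond to this pathway and were at 0.16, 0.010 and -0.31.

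Of 12 immediate early genes, 6 were higher and 6 lower, and 4 of them were above 0.5. That threshold was passed by 9.03% of all genes compared and by 2.79% of genes with at least 200 counts. FOS was at 1.15 (573 and 1248 counts), JUN at 0.71 (6877 and 11034 counts), DUSP1, a MAP kinase phosphatase, at 0.70 (2060 and 3277 counts) and EGR1 at 0.68 (3244 and 5087 counts). JUNB was the lowest at -0.39 (1489 and 1115 counts). The list median of 0.0030 was 0.15 with a minimum of 50 counts and -0.027 with the length trend removed. BTG2 and GADD45B, members that also respond early to stimulation, were at -0.027 and 0.27.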
